A study of Mus musculus with 3 samples.

Results

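The region described here is the stretch of mouse chromosome 4 that holds Cdkn2a and the type I interferon gene cluster. Its members are all non-control probes on chromosome 4 whose start lies between 84000000 and 94000000 in the array's own coordinates, 494 of 237203 probes on the array. The window was picked because input DNA looked low there on these arrays, so its input, its IP signal and their ratio are described below and support no test. The study hybridised chromatin of C2C12 cells, an established mouse myoblast line, to a custom Agilent array of mouse promoters with 2 colours. Immunoprecipitated (IP) DNA carried Cy5 and the matching input DNA carried Cy3 on all 3 arrays, without an exchange of dyes. The groups were PRDM2 IP (2 arrays, replicates 1 and 2) and H3K9me2 IP (1 array, no replicate). Every sample came from cells held without anchorage in methylcellulose until they rested in G0, then fixed with formaldehyde, so a proliferating control or a control antibody was not analysed here. The labels name 1 cell line and no separate cultures, and an array of DNA cannot check the marker genes of myoblasts.

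The window held 452 probes in 35 named promoters of 33 genes and 42 probes in 2 blocks without a gene name. A promoter is a set of probes with 1 gene name, divided at gaps of more than 10000 bp, with at least 3 usable probes on every array. Cdkn2a supplied 22 probes, 13 promoters with an interferon gene name supplied 103, and the 21 remaining promoters supplied most of the rest. Among these 21 is a gene model, OTTMUSG00000011275, with a probe that matches the promoter of the interferon gene Ifna16; values with it counted among the interferon promoters, a choice made after its values were seen, are given beside the others. The name of the locus fitted the data only in part. Low input was seen at Cdkn2a and at none of the 13 interferon promoters, so the low stretch is called by its gene, Cdkn2a.

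Cdkn2a encodes unrelated tumour suppressor proteins, INK4A and ARF, from separate first exons with separate promoters. INK4A holds the retinoblastoma protein active by inhibiting CDK4 and CDK6, and ARF stabilises p53 by binding MDM2. The locus is known for being silenced by Polycomb proteins in young cells and for being lost in many tumours and immortal cell lines, often together with its neighbours Cdkn2b and Mtap. Type I interferons are secreted antiviral proteins, encoded by a tandem family of genes that signal through a shared receptor. PRDM2 is a zinc finger protein with a histone methyltransferase domain, and H3K9me2 is dimethylated lysine 9 of histone H3, a mark of silent chromatin.

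The probes themselves show where input was low and where it was not. The following 8 of the 22 Cdkn2a probes are shown because low and ordinary input alternate along them; capitals mark CG dinucleotides, coordinates are those of the array design, and the letters are those of the deposited probe column. Low means an input signal below -2 on all 3 arrays on the log2 scale relative to probes of like GC content.
chr4:88764629-88764688, low: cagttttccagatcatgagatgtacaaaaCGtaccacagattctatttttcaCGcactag
chr4:88765378-88765422, ordinary: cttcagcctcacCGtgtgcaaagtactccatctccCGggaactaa
chr4:88765767-88765811, ordinary: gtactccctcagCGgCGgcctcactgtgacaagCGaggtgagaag
chr4:88765914-88765958, low: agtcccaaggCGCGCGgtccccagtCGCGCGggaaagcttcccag
chr4:88766034-88766078, ordinary: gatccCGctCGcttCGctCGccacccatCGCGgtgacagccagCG
chr4:88766477-88766521, low: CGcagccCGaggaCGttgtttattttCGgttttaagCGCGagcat
chr4:88767396-88767441, ordinary: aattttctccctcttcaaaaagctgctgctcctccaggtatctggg
chr4:88768189-88768244, low: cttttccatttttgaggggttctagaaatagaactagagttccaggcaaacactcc
The motif CG, searched as these letters and equal to its own reverse complement, was present in 14 of the 16 low probes and in 5 of the 6 ordinary ones. It was present in 23.3% of the 103 interferon probes and in 53.2% of the probes on the rest of chromosome 4, all of 45 to 60 nt. Among the 335 low probes on the rest of chromosome 4, CG was present in 78.5%. The median GC content of these 335 was 55.6%, against 42.6% over all probes there, and the part of base composition in the CG shares was not tested.

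Of the 22 Cdkn2a probes, 2 lie inside the more upstream of the Cdkn2a promoters in RefSeq, printed here in the direction of the gene with the probed stretches in capitals (GRCm38.p6, minus strand, chr4:89294570-89294869, 250 bases before the start and the bases after it).
Cdkn2a upstream promoter: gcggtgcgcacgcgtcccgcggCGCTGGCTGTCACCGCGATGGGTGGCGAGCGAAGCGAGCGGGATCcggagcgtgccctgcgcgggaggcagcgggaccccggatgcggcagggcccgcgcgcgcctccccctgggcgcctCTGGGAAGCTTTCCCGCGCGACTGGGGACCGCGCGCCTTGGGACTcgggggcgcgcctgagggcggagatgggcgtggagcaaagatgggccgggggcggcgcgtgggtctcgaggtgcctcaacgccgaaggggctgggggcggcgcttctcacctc
This stretch holds 45 CG dinucleotides and 77.0% G and C, against medians of 7 and 52.7% over 32851 RefSeq promoters of the same length. The first capital stretch is the probe at chr4:88766034 of the array design, with ordinary input, and the next is the probe at chr4:88765914, with low input, so both states occur inside 1 promoter. A further 2 probes match the promoter of Gm12610, a gene on the opposite strand that starts beside it. The more downstream Cdkn2a promoter of RefSeq (chr4:89282143-89282442) holds 0 array probes.

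Input DNA at Cdkn2a was dim on all 3 arrays. The median input signal of its probes was 44.0, 33.3 and 60.9 on PRDM2 array 1, PRDM2 array 2 and the H3K9me2 array, against 1404, 1201 and 1280 for probes of like GC content on the rest of chromosome 4. Below, 3 values in a row without further labels are those of these arrays in this order. Taken over the 22 probes, the mean input difference was -3.58, -3.60 and -3.09 on the log2 scale, with a mean of -3.42 ± 0.29 (SD, n = 3 arrays). These means take in probes whose input was not well above background, where a signal is only a bound. No other named promoter of the window reached these values on any array, and the next lowest single value was -2.27 at Ifna4 on the H3K9me2 array. Under the threshold of -2 on all 3 arrays, 1 of the 35 named promoters was low, Cdkn2a, where 18 of 16164 promoters (0.111%) were low over the whole array. The window was chosen from these values, so that count is a description. Normexp background correction started from the raw spot and local background intensities, not from the processed signals above, and added an offset of 50. With it, Cdkn2a stood at -0.69 and 0 promoters of the whole array were low.

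The nearest promoters on either side had ordinary input. Mtap, which encodes an enzyme of methionine salvage and lies to the left, had input differences of 0.22, 0.00 and 0.09 on PRDM2 array 1, PRDM2 array 2 and the H3K9me2 array. Dmrta1, which encodes a transcription factor with a DM domain and lies to the right, had -0.61, -0.53 and -0.62. Both had all of their probes above background on the 3 arrays, 13 of 13 at Mtap and 9 of 9 at Dmrta1.

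These neighbours bound the low stretch loosely. From its first to its last low probe it spanned 3616 bp, chr4:88764629-88768244, with 6 ordinary probes in between, so low input was not continuous there. It could reach no farther than the 567.9 kb between the last Mtap probe and the first Dmrta1 probe, since no probe lay in the 154.7 kb to the left or the 409.6 kb to the right. Cdkn2b, the neighbouring INK4 gene, had 0 probes under its name on this array and was not analysed here. The downstream promoter of Cdkn2a held no probe either, so whether it shared the low input was not tested.

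Farther out, Ifne1 (current symbol Ifne), an epithelial interferon, had -0.37, -0.07 and -0.88, and Ifna1 had -0.67, -0.43 and -0.51. The pair of Elavl2 promoters, of a neuronal RNA-binding protein gene to the right of Dmrta1, had -0.53, -0.23 and -0.51 at the first and -0.55, -0.35 and -1.02 at the second. None of these crossed -2 on any array. The mean input differences of the 20 promoters outside Cdkn2a, the named interferon genes and the model matched to Ifna16 ran from -1.03 at the first Mllt3 promoter to 0.75, with a median of -0.43. At the edges of the window, Bnc2 had -0.36, -0.35 and -0.85 just inside on the left, where Psip1 just outside had -0.15, -0.19 and -0.21. On the right, Tusc1 just inside had -0.75, -0.77 and -1.53, and 5830433M19Rik just outside had 0.00, 0.00 and -0.35.

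Within Cdkn2a the input was split. Of its 22 probes, 16 lay below -2 on all 3 arrays and the other 6 lay above -2 on all 3, with none in between. The 16 low probes had mean input differences of -4.84, -4.89 and -4.24 on PRDM2 array 1, PRDM2 array 2 and the H3K9me2 array, and the 6 ordinary ones had -0.20, -0.16 and -0.02. The highest low probe stood at -3.44, -2.38 and -2.03, and the lowest ordinary probe at -1.78, -1.61 and -1.78. The sets lay closest to each other on the H3K9me2 array. By the scanner software's flag, input exceeded background at 1, 4 and 5 of the 16 low probes, so most of these low values are bounds and not measured levels.

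The ordinary probes did not form a block. Along the promoter, low and ordinary probes made 11 runs, of which 6 were low, and the ordinary ones lay between 749 and 2767 bp from the first probe. The first 4 and the last 5 probes were all low. The median GC content of the low probes was 39.7% (31.7% to 71.1%), against 57.8% (47.8% to 71.1%) for the ordinary ones, and whether base composition or matches elsewhere in the genome had a part in the split was not tested.

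Low probes were scattered elsewhere in the window. Outside Cdkn2a, 20 of the other 472 probes (4.24%) were below -2 on all 3 arrays, against 335 of 13480 (2.49%) on the rest of chromosome 4 and 2.67% of all probes. These 20 carried 16 names (the unnamed blocks counted as 1), with at most 3 in any of them, at Tusc1. Cdkn2a, with 16 of 22 (72.7%), held nearly as many low probes as the rest of the window together.

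The flags of the scanner software describe the same input signal in another form and were among the values used to pick the window, so they add no separate evidence. Input exceeded background clearly, by the software's flag, at 7, 10 and 11 of the 22 Cdkn2a probes on PRDM2 array 1, PRDM2 array 2 and the H3K9me2 array. It was above background on none of the 3 arrays at 9 of the 22, against 10 of the other 472 window probes and 0.805% of all probes. A probe that is not above background has only a bound. For these 9 probes, like-GC probes were at least 4.10-fold to 23.3-fold brighter in input (median at least 8.92-fold), taking as the dim level the lowest signal of any probe well above background on that array or the probe's own, whichever was higher.

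The smoothed low profile began at the same probe on each array, the first after 154.7 kb without probes, so it located no left edge. With a running median over 5 neighbouring probes, 19 of the 22 Cdkn2a probes lay in runs below -2 on each of the 3 arrays, starting at the first probe of the promoter. The last run took in the first Dmrta1 probe on the PRDM2 arrays, since the window of 5 probes reaches across the gap, and further Dmrta1 probes on the H3K9me2 array. Away from Cdkn2a there were 1, 0 and 15 such runs on PRDM2 array 1, PRDM2 array 2 and the H3K9me2 array, of at most 3 and 6 probes where there were any.

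Input on the H3K9me2 array was dimmer than on the PRDM2 arrays across the window, and the short runs of that array stand beside this. By the flag, input exceeded background at 92.9% and 95.3% of the window probes on PRDM2 array 1 and PRDM2 array 2, and at 80.4% on the H3K9me2 array. On the rest of chromosome 4 the shares were 98.5%, 99.2% and 95.8%.

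IP signal at Cdkn2a was lower than at like-GC probes on average, but less so than input. The mean IP difference over the 22 probes was -1.42 and -0.47 on PRDM2 array 1 and PRDM2 array 2 and -1.09 on the H3K9me2 array. At the 16 low probes it was -2.08, -1.03 and -1.62, and at the 6 ordinary ones 0.33, 1.03 and 0.31. IP passed the same flag at 4, 8 and 10 of the 16 low probes and at all 6 ordinary probes on each array. At the other low probes the IP values are bounds too. How far that limit made the IP differences smaller than the input differences was not tested.

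At single low probes, flagged as dim or not, IP differed widely between the PRDM2 arrays. The probe at chr4:88766477-88766521 had an IP signal of 1362 on PRDM2 array 1, 35757 on PRDM2 array 2 and 2138 on the H3K9me2 array, over an input of 127, 264 and 384. The probe at chr4:88765589-88765637 went the other way, with an IP signal of 7246 on PRDM2 array 1, 303 on PRDM2 array 2 and 1040 on the H3K9me2 array, over an input of 23.6, 32.5 and 145.7. So neither PRDM2 array was the brighter one throughout.

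Over the 16 low probes, the IP difference moved by more than 1 log2 unit between the PRDM2 arrays at 7, and over the 6 ordinary probes at 3. Over the other window probes this was 149 of 472 (31.6%). The largest gap within Cdkn2a was 4.72, and within the rest of the window 7.07.

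The probe with most IP and ordinary input lay inside the upstream promoter. The probe at chr4:88766034-88766078, printed above, had an IP signal of 20804 and 17914 on PRDM2 array 1 and PRDM2 array 2 and 10185 on the H3K9me2 array, over an input of 1593, 656 and 1706. Its centred log2 ratio was 4.62, 5.57 and 2.85. The probe at chr4:88767396-88767441 had the highest IP difference of the ordinary probes, 3.31, 4.07 and 2.67, and its input difference was 0.99, 1.02 and 1.04, so both channels were bright there.

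The ratio of IP over input at Cdkn2a was high on all arrays, as a mix of these probes. Ratios are log2 values with the array's median probe set to 0; uncentred, that probe stood at -0.91, -0.80 and -0.27. The Cdkn2a mean was 2.87 and 3.92 on the PRDM2 arrays (3.39 ± 0.75, SD, n = 2) and 1.90 on the H3K9me2 array.

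Many of the probes behind that ratio had little signal in either channel. On PRDM2 array 1, 12 of the 22 probes had neither channel well above background, and their ratios ran from 1.59 to 2.73 with a median of 2.08. Over all 4072 such probes of that array the median was 0.82, and over the 70 such probes of chromosome Y it was 2.02. On PRDM2 array 2 the median was 2.79 over 7 such Cdkn2a probes, against 1.83 over 2100 such probes in all and 2.73 over 69 on chromosome Y. On the H3K9me2 array it was 0.87 over 6, against 0.45 over 12842 in all and 0.57 over 39 on chromosome Y. The median ratio of probes dim in both channels was thus above 0 on every array, without a measured IP.

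The ratio, not corrected for GC content, was also high at the probes bright in both channels. At the 7 Cdkn2a probes with both channels well above background on both PRDM2 arrays, the mean ratio was 2.72 and 4.01 on PRDM2 array 1 and PRDM2 array 2 (3.37 ± 0.91, SD, n = 2). These 7 are the 6 ordinary probes and the probe at chr4:88766477. At the 6 ordinary probes alone it was 2.46 and 3.37 (2.91 ± 0.64, SD, n = 2), and 1.33 on the H3K9me2 array. Relative to like-GC probes, these 6 had mean IP differences of 0.33, 1.03 and 0.31 and mean input differences of -0.20, -0.16 and -0.02. How much of the signal at these probes arose from Cdkn2a itself was not tested.

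Low input was rare among the promoters of the array, with 18 of 16164 past the threshold. Chromosome Y, which a cell line may lack, gave 7 of the 18, out of 8 Y promoters with enough probes. The Cdkn2a means of -3.58, -3.60 and -3.09, which take in its 6 ordinary probes, lay within the ranges of the Y promoters. At the 66 low probes of chromosome Y the mean input differences were -4.24, -4.52 and -3.57. The 16 low probes of Cdkn2a had -4.84, -4.89 and -4.24, and most of these values are bounds in both sets. Over the 8 Y promoters the input differences ran from -4.14 to -2.54 on PRDM2 array 1, -4.40 to -2.78 on PRDM2 array 2 and -3.29 to -1.75 on the H3K9me2 array. Their medians were -3.42, -3.28 and -2.61. Ddx3y, an RNA helicase gene, missed the threshold by its -1.75 on the H3K9me2 array.

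Outside the window, the 5 lowest promoters by mean were Tas2r120, A430090E18Rik, Uty, A030013N09Rik and Sry. Tas2r120, a bitter taste receptor gene on chromosome 6, had -4.30, -4.66 and -3.85. A430090E18Rik and A030013N09Rik, now Skint3 and Skint9 of the Skint family of immunoglobulin-like genes, lie together elsewhere on chromosome 4 and had -4.07, -4.22 and -3.64 and -3.88, -4.20 and -3.37. Uty, a histone demethylase gene, had -4.14, -4.40 and -3.29, and Sry, the testis-determining gene, had -3.84, -4.15 and -3.24. The mean of Cdkn2a was -3.42. Odorant receptor genes made up 4 of the 18, out of 793 such promoters on the array (0.504%), and 10 of the 18 lay on autosomes, Cdkn2a among them.

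These promoters were picked by low input, which is the denominator of the ratio, and their ratios lay above 0. All 18 were called enriched in PRDM2 IP over input, with means of 0.77 to 3.99 and a median of 2.31, where 46.9% of all promoters were called. Their IP differences from like-GC probes ran from -1.81 (Tas2r120) to -0.0019 (Rbmy1a1) on PRDM2 array 1. On PRDM2 array 2 they ran from -2.08 (H2-M1) to -0.34 (Eif2s3y). The promoters share low input by the way they were chosen, so nothing is read from their calls, and the part of dim input in their ratios was not tested.

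No interferon promoter met the threshold for low input, but most lay below the median promoter of the array. The 13 named ones gave 0 low promoters, where 0.111% of all promoters were low, so nothing is read from that count. Their mean input differences ran from -1.27 at Ifna9 to 0.05 at Ifna7, with a median of -0.54, against -0.06 over all promoters. With OTTMUSG00000011275 counted among them, the lowest of the 14 was -1.53 and the median -0.55. Ifnb1, the gene of interferon beta, had -0.35, -0.32 and -0.70 on PRDM2 array 1, PRDM2 array 2 and the H3K9me2 array. Ifna9 had -1.09, -0.85 and -1.86, Ifna4 had -0.63, -0.37 and -2.27, and Ifna12 had -1.17, -0.86 and -0.82. Most of the 13 were lower on the H3K9me2 array: the median was -0.37 and -0.14 on PRDM2 array 1 and PRDM2 array 2 and -1.14 there.

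Dim probes went with that. By the flag, input exceeded background at 91.3% and 96.1% of the 103 interferon probes on PRDM2 array 1 and PRDM2 array 2, against 95.5% and 97.8% of like-GC probes, and at 68.0% on the H3K9me2 array, against 85.0%. Below -2 on all 3 arrays were 7 of the 103 probes (6.80%), against 2.49% on the rest of chromosome 4 and 2.67% of all probes. Interferon genes are near copies of each other, and a probe may catch DNA of several. Only 8 of the 103 interferon probes were found whole in a RefSeq promoter of chromosome 4, so whether the others match several genes was not tested. None of the 38 window probes found whole there matched more than 1 gene, but inexact matches were not searched.

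A gene model inside the cluster came next to Cdkn2a. OTTMUSG00000011275, named here after its values were seen, had input differences of -1.49, -1.85 and -1.24, over only 4 probes of 28.8% GC content, of which 2 were above background on each array. Of these probes, 1 was low on all 3 arrays. The probe below is given because it is the one that ties the model to a known gene: its whole sequence occurs in the RefSeq promoter of Ifna16.
chr4:88148224-88148283: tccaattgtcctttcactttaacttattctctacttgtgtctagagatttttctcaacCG
Its CG is in capitals as above. This promoter and Cdkn2a were the 2 of 35 below -1 on all 3 arrays.

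The other genes of both pathways are given by their values, and nothing is read from their counts, since 0.111% of all promoters were low. Of 12 promoters of interferon receptors and signalling elsewhere in the genome, 0 were low; the lowest were Isgf3g (-0.55), which encodes IRF9, Ifngr2 (-0.29), a chain of the receptor of interferon gamma, Stat2 (-0.24), a partner of IRF9, and Ifngr1 (-0.11), all as means over the 3 arrays. Of 17 promoters of the INK4, CIP and p53 pathway, 0 were low. The lowest were the cyclin D genes Ccnd1 (-0.80) and Ccnd2 (-0.63), the CDK inhibitor gene Cdkn1c (-0.51) and Rbl1 (-0.42), a relative of the retinoblastoma gene. Cdkn2c, an INK4 gene on the same chromosome outside the window, stood at 0.08, and Cdkn2d at 0.24. Trp53, which acts downstream of ARF, stood at -0.16, Mdm2 at -0.28 and Rb1 at -0.13. Ifnk, an interferon gene of chromosome 4 outside the window, had -0.94. The medians were 0.22 for the receptors and signalling genes and 0.00 for the INK4, CIP and p53 genes, against -0.06 over all promoters.

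For IP over input without further correction, the window lay near the rest of the array. PRDM2 enrichment was called with limma at a Benjamini-Hochberg adjusted p under 0.05 at 15 of the 35 promoters, where 46.9% of all promoters were called, and depletion at 1, where 1.08% were. Median ratios were 0.51 over the window promoters and 0.50 over all promoters, and with that median promoter set to 0 in place of the median probe, 6 of the 35 were called enriched and 2 depleted. With loess the medians were 0.38 over the window and 0.12 over all promoters, with 16 of the 35 and 3296 of 16164 called enriched. With the GC trend removed they were 0.36 and 0.24, with 10 of the 35 and 16.7% of all promoters called enriched. The window was chosen with these ratios in view, so nothing is read from the counts.

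Outside Cdkn2a, and passing over predicted gene models, the highest genes were Ifna12, Tusc1, Elavl2, Ifna1 and Dmrta1. Ifna12 had ratios of 1.34 and 1.38 on PRDM2 array 1 and PRDM2 array 2 and 0.53 on the H3K9me2 array, from only 5 probes. Tusc1, a candidate tumour suppressor gene, had 1.26, 1.25 and 1.05, and the first Elavl2 promoter had 1.25, 1.22 and 0.60. The SDs between the PRDM2 arrays at these 3 promoters were 0.03, 0.00 and 0.03. Ifna1 had 1.36 and 0.62 on the PRDM2 arrays and 1.73 on the H3K9me2 array, and Dmrta1 had 0.88, 1.07 and 0.32. All 5 kept a ratio above 0 in each of the 9 settings tried, but none was called in every setting, with 7 calls for Ifna12 and Tusc1 and 6 for Ifna1 and that Elavl2 promoter. Dmrta1 was called in 5 of 9. A gene model in the cluster, OTTMUSG00000007655, had 1.67, 1.45 and 1.36, and OTTMUSG00000011275 had 1.33, 0.88 and -0.03. Both were called enriched, with means of 1.56 and 1.11, above those of Ifna1 (0.99) and Dmrta1 (0.98), and both were named after their values were seen.

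At the other end, Ifna11 had ratios of -0.50 and -0.62 on the PRDM2 arrays and -0.36 on the H3K9me2 array, and was the 1 promoter called depleted. Its call was made in 4 of 9 settings, and with normexp background its mean was above 0 (0.21). The first Mllt3 promoter, of a transcription elongation gene, had -0.12 and -0.18 on the PRDM2 arrays, against 0.81 on the H3K9me2 array. Ifna13 (-0.07 ± 0.48), Adfp (0.01 ± 0.02), which encodes the lipid droplet protein perilipin 2, and Ifnb1 (0.02 ± 0.05) were not called, as means of PRDM2 with the SD of 2 arrays. Mtap, beside Cdkn2a, had 0.31 and 0.72 on the PRDM2 arrays and -0.45 on the H3K9me2 array, and was not called either. With outlier spots kept it was called, at a PRDM2 mean of 0.71 (limma adjusted p = 0.0129), and it was uncalled in the other 8 settings (adjusted p 0.0517 to 0.971).

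As a group, the 13 interferon promoters had 2 PRDM2 calls up (Ifna12 and Ifna1), 1 down (Ifna11) and 10 uncalled, with a median ratio of 0.28. The 21 other promoters had 12 calls up and 0 down, with a median of 0.56. Over all promoters 46.9% were called up and 1.08% down. With OTTMUSG00000011275, which was called up, moved to the interferon group, the counts were 3 of 14 up with a median of 0.32, against 11 of 20 with a median of 0.54. The interferon probes were poorer in G and C, with a median over promoters of 34.9%, against 43.7% for the other promoters. With the trend on GC content removed, 4 of 13 interferon and 5 of 21 other promoters were called up, with medians of 0.52 and 0.29 where the median of all promoters was 0.24 and 16.7% of them were called. The order of the groups thus turned with that correction, as it did with the model moved (medians 0.52 and 0.28). With normexp background no promoter was called, and the medians were 0.29 and 0.22.

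H3K9me2 has 1 array and no test of its own. Its ratio was above 1 at 5 of the 35 promoters, where 4.08% of all promoters were. These were Cdkn2a (1.90), Ifna1 (1.73), OTTMUSG00000007655 (1.36), Tusc1 (1.05) and Ifna14 (1.02). At Ifna14 the input of that array was dim, and over its 4 probes with input well above background the ratio was 0.07. At Cdkn2a it was 1.87 over 11 such probes, at Ifna1 1.84 over 6, at Tusc1 1.05 over 13 and at OTTMUSG00000007655 2.01 over 4. With the GC trend removed, 9 of the 35 lay above 1, where 6.66% of all promoters did, and 5 of these 9 were interferon promoters. With normexp background 0 of the 35 did, where 10.0% of all promoters did.

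Between the antibodies, PRDM2 was called higher than H3K9me2 at 10 of the 35 promoters and lower at 1, where 41.1% and 1.6% of all promoters were called. The call assumes that the lone H3K9me2 array varies as the PRDM2 pair does, and the window was chosen with these ratios in view, so nothing is read from the counts. Cdkn2a had a PRDM2 minus H3K9me2 difference of 1.49, and none of the 13 interferon promoters was called in either direction. By the scan dates in the file headers, PRDM2 array 2 and the H3K9me2 array were scanned on 1 day and PRDM2 array 1 on another. Between the 2 arrays of the same scan day the Cdkn2a difference was 2.02. No fit with scan day as a term could be made, since 3 arrays leave it no residual degrees of freedom.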

How the data were processed

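The deposited processed intensities, per the file headers, came from Agilent Feature Extraction 10.5.1.1, with detrending, subtraction of a negative-control background, linear dye normalization and surrogate values for dim spots. The raw intensities, also per the file headers, were spot means and local background medians, used for normexp (offset 50), the log10 ratios (used only as a check) were of red over green, and flags of 0 or 1 marked dim and outlier spots. The authors' deposited value table held log2 values of IP over input, as judged against the scanner files (correlations 0.965, 0.940 and 0.972); its centring (medians 0.124, 0.103 and 0.278), the tool behind it and the genome build of the probe coordinates are not given in the sources used here.

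Outlier spots were left out (1 in the window, on PRDM2 array 1). The input difference is log2 processed signal minus the median of probes in the same class of 2 points of GC content on the rest of chromosome 4, widened to at least 50 probes. Promoter values are means over probes. PRDM2 ratios were fitted against 0 over 16164 promoters with limma 3.58.1 in R 4.3.3, adjusted by Benjamini-Hochberg, and the difference of antibodies was fitted over 3 arrays. These p-values cover no more than the spread of these arrays, which may be technical. Scripts were tested on simulated data. Tables were made in Python 3.11.15 with pandas 2.3.3 and numpy 2.4.6. Of 35 names, 26 were current RefSeq symbols, 7 synonyms and 2 unmatched. Named genes were those in the low stretch, the 3 promoters nearest each edge, Cdkn2a, Cdkn2b, Mtap, Ifnb1, the 5 highest and 5 lowest by PRDM2 mean, up to 5 lowest inputs elsewhere and up to 4 per list, passing over predicted genes. The members, lists and tests were chosen with earlier results of these data known.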

Additional observations from a re-analysis of the deposited data

How the results depend on the processing

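Cdkn2a was the 1 low-input promoter of the window with like-GC probes of all autosomes, with a threshold of -3, with the median over probes and with each array left out (with an array left out, count 1 to 1, length 3616 to 3616 bp and median input difference -3.59 to -3.33). With normexp input signal, made from the raw intensities with 50 added, the count was 0 and there was no stretch to measure. Cdkn2a then stood at -0.69 and 0 of all promoters were low, chromosome Y included. The count was 2 at a threshold of -1 and 3 without GC correction, where the first of the runs of 1 promoter was OTTMUSG00000011275 (456 bp, -3.83) and Cdkn2a stood at -3.38. With the median over probes, Cdkn2a stood at -4.04. Window promoters called PRDM2 enriched numbered 15, against 0 with normexp background, 6 with the median promoter as 0 and 2 with the median over probes. Over all promoters those settings called 0, 2774 and 919, against 7586, with loess 3296 and with the GC trend removed 2695. In the window, loess called 16 and removal of the GC trend 10. Splits of higher and lower calls over all promoters were 7586 and 174, with loess 3296 and 1147 and with the median promoter as 0 2774 and 2100, since the median promoter lay at 0.50. The Cdkn2a ratio of 3.39 came to 0.97 with normexp background (0 calls in the stretch), 2.62 with the GC trend removed and 2.52 in the authors' deposited table, and 2.87 to 3.92 with either PRDM2 array left out. The window promoters with H3K9me2 above 1 numbered 5, against 9 with the GC trend removed and 0 with normexp, where 4.08%, 6.66% and 10.0% of all promoters lay above 1; these alternatives were chosen after seeing the data. Calls with 1 PRDM2 array left out were not run, since no residual degrees of freedom remain. No paired analysis was possible because only the PRDM2 arrays carry replicate numbers. Signal near background limits the low values: the 9 Cdkn2a probes that were dim on all arrays have bounds only, and 2 arrays for PRDM2 and 1 for H3K9me2 limit the precision.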
